A study of Mus musculus with 115 samples.

Results

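The genes described here encode subunits of the mitochondrial machinery of oxidative phosphorylation, together with the assembly factors that share their names. They were taken by gene symbol, as the genes with a single-symbol probe set whose symbol starts with Nduf, Uqcr, Sdh followed by a to d, Atp5, or Cox followed by a digit from 4 to 8, leaving out Cox7a1 and Cox8b. The choice of genes used no measured value, while a gene with several probe sets was represented by the one with the highest mean. The rule found 89 genes among the 18772 genes of the array that have such a probe set. Of these, 35 belong by name to complex I, 4 to complex II, 7 to complex III, 15 to complex IV and 17 to complex V. A further 7 are Ndufaf assembly factors of complex I, and 4 are Sdhaf assembly factors of complex II, which the letter of the rule also takes.

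The tissue was the mammary fat pad, taken from 115 mice, with 1 array per mouse. All were untreated females aged 8 weeks from a backcross to FVB/N of hybrids between FVB/N and Spret/Ei, so that the mice differ from each other in which loci carry a Mus spretus allele. Under the label lymph cluster, 10 mice carry the number 3, 61 the number 2 and 44 the number 1, with no word on how the clusters were made. Plate 2 carried 22 arrays, 1 of them from cluster 3, and plate 1 carried 93. No mouse is a knockout or a control, and the gene in the title of the study, Hipk2 (a nuclear protein kinase), was left as each mouse had it.

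The tissue is a mixture, and its markers varied between mice. The mean log2 value of 15 white adipocyte markers lay between 10.90 and 12.20, with a median of 11.84. That of 8 thermogenic adipocyte markers, such as Ucp1 and Cidea, lay between 6.02 and 9.97. The mean of 20 skeletal muscle markers lay between 4.94 and 12.37, which was the widest range of the 5 lists. The mean of 14 luminal epithelium markers lay between 6.13 and 9.73, and that of 10 lymphocyte markers between 6.33 and 9.50. In such bulk samples, fewer cells of a type and less RNA per cell cannot be told apart.

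Oxidative phosphorylation passes electrons from NADH and succinate through complexes I and II to ubiquinone, and from there through complex III and cytochrome c to complex IV, where oxygen is reduced. Complexes I, III and IV pump protons across the inner mitochondrial membrane, and complex V, the ATP synthase, makes ATP from their return. Brown and beige fat cells hold many mitochondria and let protons return through Ucp1 instead, while white fat cells hold fewer. Subunits are encoded partly in mitochondrial DNA and mostly in the nucleus. The nuclear genes are known targets of NRF1, GABP, the estrogen-related receptors and YY1, which the coactivator PGC-1 alpha, encoded by Ppargc1a, docks onto. The members described here are all nuclear genes.

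The levels of the members were correlated from mouse to mouse. The correlation was weakest in complex IV, which holds several isoforms made in single tissues. Cox7b2 was the only member with a mean log2 value under 5. Within each complex, the member that varied most between mice was Ndufa1 in complex I (SD 0.51 on the log2 scale, n = 115), Sdhb in complex II (0.40), Uqcrfs1 in complex III (0.47), Cox6a2 in complex IV (1.22) and Atp5l in complex V (0.49). Among assembly factors it was Ndufaf1 for complex I (0.38) and Sdhaf4 for complex II (0.43). Across mice, with cluster and plate removed, the median Pearson correlation over the 3916 pairs of members was 0.61, and 3763 pairs were positive. It was 0.68 for pairs within a complex and 0.65 for pairs from different complexes. The median pair correlation was 0.83 in complex II, 0.80 in complex III, 0.71 in complex I and 0.66 in complex V, against 0.23 in complex IV. All pairs share the same 115 arrays, and these values are descriptions. The first principal component held 60.1% of the members' variance, and 88 of 89 members loaded on it with the same sign. The exception was Cox7b2, a testis isoform of a complex IV subunit. Its median correlation with the other members was -0.18. Low medians were also found for Cox8c (0.02), Cox7a2l (0.14), Cox6b2 (0.16), Cox6a2 (0.20), Cox4i2 (0.23), Atp5g1 (0.23) and Ndufa4l2 (0.25). Of these, Cox8c and Cox6b2 are testis isoforms, Cox6a2 is the heart and skeletal muscle isoform, Cox4i2 is the isoform of lung and hypoxia, and Ndufa4l2 is the hypoxia-induced relative of Ndufa4. Removing the 5 marker list means as well left a median pair correlation of 0.26 and 31.9% on the first component.

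Because members moved together, their promoters are shown for the letters that the named regulators bind. RefSeq promoters, from 250 bases before to 50 bases after the annotated start in GRCm38.p6, were matched by gene to 74 of the 89 members and gave 79 promoters. Both strands were searched for exact matches. The NRF1 motif, the letters in capitals in Ndufa11 below, was found in 7 of the 79 member promoters (8.86%), against 0.971% of all 32851 promoters and 1.33% of those of protein-coding genes. The GABP motif CCGGAAG, the core that other ETS factors share, was found in 21 (26.6%), against 8.86% of all promoters and 11.6% of those of protein-coding genes. The YY1 motif, the letters in capitals in Atp5j below, was found in 5 (6.33%), against 0.852% and 1.21%. The estrogen-related receptor motif TCAAGGTCA was found in 2 (2.53%), against 0.423% and 0.334%. At least 1 of the 4 motifs was found in 31 member promoters (39.2%) and in 10.7% of all promoters. No match overlapped another. A match describes letters in this window only. The stretches below are of members that rose with Ppargc1a, chosen to show each motif once or more in its setting, with the letters of the motif named for each stretch in capitals. The Atp5j stretch also holds the letters of the GABP motif, which are left in lower case there. They lie before the annotated start and are written 5′ to 3′ along the strand of the gene, so that a motif on the opposite strand appears as its reverse complement. The NRF1 motif is shown in genes of complexes I, IV and V.
Ndufa11 (chr17:56717667-56717746, plus strand): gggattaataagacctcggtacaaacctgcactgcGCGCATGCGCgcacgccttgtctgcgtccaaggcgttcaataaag
Cox6a1 (chr5:115349076-115349155, minus strand): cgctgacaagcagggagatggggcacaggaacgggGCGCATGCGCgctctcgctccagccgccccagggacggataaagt
Atp5g2 (chr15:102671048-102671127, minus strand): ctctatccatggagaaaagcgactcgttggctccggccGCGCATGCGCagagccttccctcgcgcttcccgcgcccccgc
Atp5k (chr5:108434405-108434484, minus strand): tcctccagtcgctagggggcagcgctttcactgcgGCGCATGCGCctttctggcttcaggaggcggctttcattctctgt
The GABP motif is shown in genes of complexes I, II and III, the YY1 motif in Atp5j and the estrogen-related receptor motif in Atp5g3, both of complex V.
Ndufs3 (chr2:90904722-90904801, minus strand): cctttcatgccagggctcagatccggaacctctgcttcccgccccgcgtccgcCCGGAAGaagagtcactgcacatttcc
Sdhd (chr9:50603854-50603933, minus strand): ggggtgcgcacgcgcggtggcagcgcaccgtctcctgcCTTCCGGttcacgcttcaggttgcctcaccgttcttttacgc
Uqcr11 (chr10:80406846-80406925, minus strand): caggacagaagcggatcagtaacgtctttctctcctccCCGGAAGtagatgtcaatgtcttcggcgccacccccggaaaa
Atp5j (chr16:84835020-84835099, minus strand): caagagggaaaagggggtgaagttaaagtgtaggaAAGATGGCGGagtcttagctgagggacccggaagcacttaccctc
Atp5g3 (chr2:73911335-73911414, minus strand): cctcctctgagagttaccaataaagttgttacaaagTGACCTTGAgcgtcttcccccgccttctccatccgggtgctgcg

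No member was called between the lymph clusters. Uqcrc1, a core subunit of complex III, had log2 values with lowest, median and highest of 9.64, 10.26 and 10.52 in cluster 3, of 8.96, 10.14 and 11.30 in cluster 2, and of 9.57, 10.10 and 11.19 in cluster 1. Sdhb, the iron-sulfur subunit of complex II, ran over 9.75, 10.35 and 10.89 in cluster 3, over 9.68, 10.32 and 11.37 in cluster 2, and over 9.59, 10.30 and 11.38 in cluster 1. The ranges of the 3 clusters overlapped for both genes, and the widest were those of the larger clusters 2 and 1. Ndufv1, which binds NADH in complex I, ran over 9.54, 10.08 and 10.55 in cluster 3, over 8.95, 10.07 and 11.20 in cluster 2, and over 9.33, 10.06 and 11.18 in cluster 1. Cox5a, a structural subunit of complex IV, ran over 7.74, 8.40 and 9.09 in cluster 3, over 6.96, 8.30 and 9.54 in cluster 2, and over 7.32, 8.31 and 9.78 in cluster 1. Atp5a1, the alpha subunit of complex V, ran over 11.56, 11.75 and 12.20 in cluster 3, over 10.91, 11.84 and 12.38 in cluster 2, and over 11.26, 11.81 and 12.54 in cluster 1. The clusters overlapped in these genes too.

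In limma's moderated test with plate as a covariate, 0 of 89 members were called at a Benjamini-Hochberg adjusted p under 0.05 in each of the 3 cluster comparisons, as were 0% of the 28204 probe sets. The median difference of the members was -0.04 for cluster 3 minus 1, -0.01 for cluster 3 minus 2, and -0.03 for cluster 2 minus 1. Over all probe sets these medians were -0.00519, -0.00312 and -0.00389. At an unadjusted p under 0.05 there were 0 members in each comparison, and 1, 1 and 4 of all probe sets. That is far below 5% of the probe sets, and whether the deposited values had been adjusted for the clusters was not tested. Leaving aside Cox6a2, the 95% intervals of the members' differences lay within -0.47 and 0.31 for cluster 3 minus 1, within -0.42 and 0.33 for cluster 3 minus 2, and within -0.26 and 0.18 for cluster 2 minus 1. For Cox6a2 the interval of cluster 3 minus 1 was wider and reached from -0.86 to 0.83.

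Nor was any member called between the plates. Uqcrc1 had a mean log2 value of 10.09 ± 0.55 on plate 2 and 10.19 ± 0.41 on plate 1 (SD, n = 22 and 93). With cluster as a covariate, limma called 0 of 89 members, against 0.0106% of all probe sets. Without adjustment, 3 members had a p under 0.05 (Atp5b, Ndufa6 and Uqcrb), as did 2.70% of all probe sets, so this count is near the background. The median difference of plate 2 minus plate 1 was -0.06 for the members and -9.55e-04 for all probe sets.

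Members rose with Ppargc1a in all 5 complexes. Ppargc1a itself had log2 values from 6.28 to 10.28, with a median of 7.82. The mouse with the lowest Ppargc1a also had the lowest Uqcrc1 (8.96), the lowest Ndufv1 (8.95) and the lowest Cox5a (6.96) of all mice. The mouse with the highest Ppargc1a had the highest Uqcrc1 (11.30) and the highest Ndufv1 (11.20). Of the 89 members, 82 rose and 0 fell with Ppargc1a in limma at an adjusted p under 0.05, where 11.6% of all probe sets rose and 13% fell. The slope is the change of a gene's log2 value per log2 unit of Ppargc1a, with cluster and plate held. Its median was 0.28 for the members and -0.01 for all probe sets. Within plate 2 alone 56 members rose, against 4.36% of all probe sets, and within plate 1 alone 81 rose, against 9.74%. Without the 2 mice farthest from the median of Ppargc1a, 79 rose, against 10.7% of all probe sets.

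**Figure D1:**
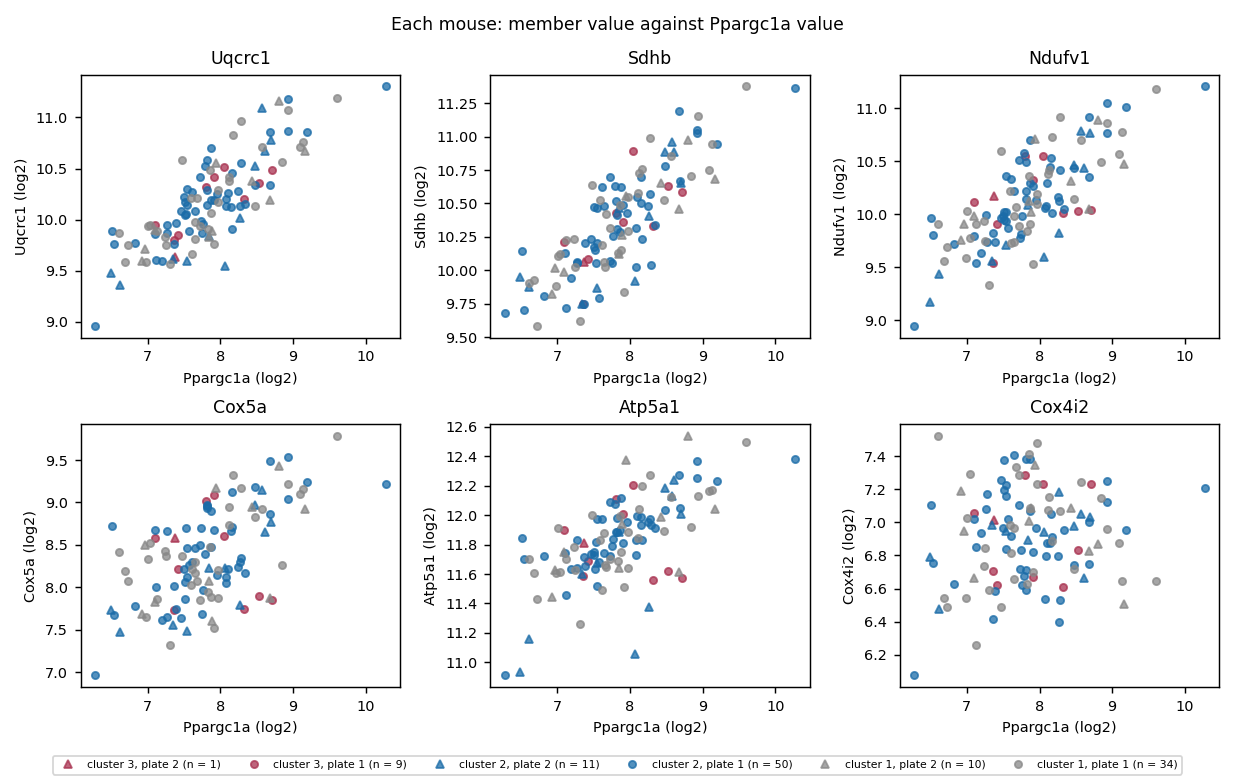
Log2 values of 5 core subunits and of Cox4i2 in each of the 115 mice against that mouse's log2 value of Ppargc1a; colours mark the lymph cluster and shapes the array plate. The 5 core subunits climb with Ppargc1a (slopes 0.27 to 0.51), while Cox4i2 had a slope of 0.05 and was not called.

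In complex III, all 7 members rose, with a median slope of 0.40. The steepest were its core subunit Uqcrc1 (0.51 ± 0.03, SE; limma adjusted p = 1.48e-25) and Uqcrfs1, the Rieske iron-sulfur protein that passes electrons on (0.49 ± 0.04, adjusted p = 6.67e-19). In complex II, all 4 rose, with a median of 0.36. Sdhb, whose iron-sulfur clusters lead electrons to ubiquinone, had a slope of 0.46 ± 0.03 (adjusted p = 3.58e-25), against 0.32 ± 0.03 for Sdha, the subunit that oxidises succinate. In complex I, 34 of 35 rose, with a median of 0.32. Ndufv1 had a slope of 0.47 ± 0.04 (adjusted p = 1.14e-20), and Ndufs1, the largest iron-sulfur subunit, one of 0.40 ± 0.04. Ndufa4, which the rule counts to complex I by its symbol although its protein has since been assigned to complex IV, had a slope of 0.33. In complex V, all 17 rose, with a median of 0.24. The catalytic beta subunit Atp5b had a slope of 0.16 ± 0.02 and the alpha subunit Atp5a1 one of 0.27 ± 0.03. The 3 genes of the c ring, which encode the same mature protein, had slopes of 0.17 ± 0.06 (Atp5g1), 0.18 ± 0.03 (Atp5g2) and 0.16 ± 0.03 (Atp5g3). The call of Atp5g1 was lost on plate 1 alone (0.07, adjusted p = 0.416) and without the 2 mice farthest from the median of Ppargc1a (0.13, adjusted p = 0.0989).

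In complex IV, 10 of 15 rose, with a median of 0.21. Cox5a had a slope of 0.47 ± 0.06 (adjusted p = 1.40e-10), and Cox4i1, the common isoform of subunit 4, one of 0.32 ± 0.04. Cox6a2 had the steepest slope of all members and the widest error, 0.52 ± 0.15 (adjusted p = 0.00747). That call was lost on plate 1 alone (0.36, adjusted p = 0.138) and without the 2 mice farthest from the median of Ppargc1a (0.37, adjusted p = 0.0993). The other isoforms of single tissues in complex IV were not called, and of these Cox6b2, Cox7b2 and Cox8c had low signal. Their slope was 0.05 ± 0.04 for Cox4i2, 0.05 ± 0.03 for Cox6b2, -0.04 ± 0.02 for Cox7b2 and 0.02 ± 0.02 for Cox8c. Cox7a2l, a factor of supercomplex assembly, had a slope of 0.11 ± 0.05. Outside complex IV, Ndufa4l2 (0.04 ± 0.03) and Sdhaf2 (0.06 ± 0.03), which attaches the flavin to Sdha, were also not called. All 7 assembly factors of complex I and 3 of the 4 of complex II rose, with median slopes of 0.18 and 0.13.

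**Figure D2:**
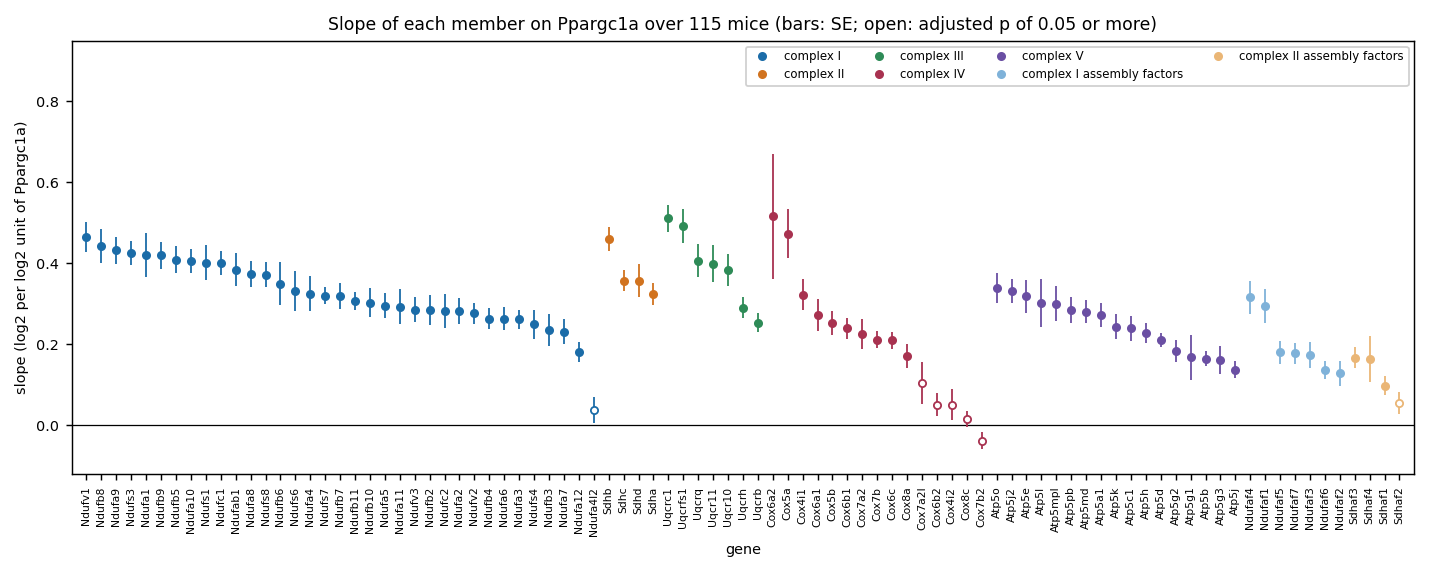
Slope of each of the 89 members on Ppargc1a, in log2 per log2 unit over 115 mice, ordered by complex; bars are SE and open points have an adjusted p of 0.05 or more. The 82 filled points lie above 0, and 5 of the 7 open points belong to complex IV.

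The other genes of mitochondrial energy metabolism, from lists that are not members, mostly rose with Ppargc1a too. Of 14 measured genes of pyruvate dehydrogenase and the citric acid cycle all 14 rose, among them Ogdh, a subunit of the oxoglutarate dehydrogenase complex (0.39 ± 0.03, adjusted p = 6.78e-25) and Idh3g (0.37 ± 0.03). Of 16 genes of fatty acid oxidation, 15 rose, among them Hadha (0.42 ± 0.03), a subunit of the trifunctional protein, and Acadl (0.51 ± 0.04), the long-chain acyl-CoA dehydrogenase. Cpt1a, the liver-type gate for fatty acids, was the exception and fell (-0.17 ± 0.04, adjusted p = 3.28e-04). Of 31 assembly factors outside the rule, 26 rose, with Ecsit (0.37 ± 0.03) and Tmem70 (0.35 ± 0.03) having the smallest p, and Cox20 fell (-0.11 ± 0.04). Of 7 genes for cytochrome c and carriers, 6 rose, among them Cycs (0.28 ± 0.03), which is cytochrome c itself, and Vdac1 (0.22 ± 0.03). The muscle and brown fat isoforms that the rule leaves out had slopes of 1.42 ± 0.11 (Cox7a1) and 1.10 ± 0.08 (Cox8b), and both rose.

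The regulators divided. Of 12 tested, 7 rose with Ppargc1a and 4 fell. Ppargc1b, the close relative of Ppargc1a, rose (0.44 ± 0.03, adjusted p = 1.47e-22), as did the estrogen-related receptor gene Esrra (0.28 ± 0.03). Gabpa, which encodes the DNA-binding part of GABP, rose with a slope of 0.06 ± 0.02. Nrf1 (-0.08 ± 0.03), Gabpb1 (-0.10 ± 0.03), Yy1 (-0.06 ± 0.02) and Pprc1 (-0.11 ± 0.03) fell. NRF1, GABP, YY1 and the estrogen-related receptors bind the motifs shown above, and these values are transcript levels of their genes.

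Markers of other cell types moved with Ppargc1a as well. All 8 thermogenic markers rose with it, with a median slope of 1.04 and 1.93 ± 0.20 for Ucp1, and 16 of 20 skeletal muscle markers rose, with a median of 0.74. Of the white adipocyte markers 6 of 15 rose and 1 fell, of the luminal epithelium markers 0 of 14 rose and 1 fell, and of the lymphocyte markers 0 of 10 were called. Holding the 5 marker list means beside Ppargc1a left 33 of 89 members rising and 0 falling, where 2.82% of all probe sets rose and 2.88% fell, and a median slope of 0.11. These 33 included 18 of complex I, 3 of complex II, 5 of complex III, 4 of complex V, 1 of complex IV and 2 assembly factors. Sdhb had the steepest of these slopes (0.31 ± 0.04, adjusted p = 2.52e-07) and Uqcrc1 had one of 0.22 ± 0.04. The list means were measured on the same arrays, and how far the make-up of the tissue enters the slopes that were left was not tested. Ppargc1a and the thermogenic list mean had a Pearson correlation of 0.75 with cluster and plate removed, so the fit separates them only in part.

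The thermogenic list was the one with which most members were called when the 5 lists were fitted together. In that fit each partial slope is the change of a member's log2 value per log2 unit of a list's mean, with the other 4 lists, cluster and plate held. With the thermogenic list 81 of 89 members rose and 0 fell, against 9.92% and 8.34% of all probe sets, and the median was 0.19 against -0.00345. All members of complexes II and III rose, 34 of 35 of complex I, 16 of 17 of complex V and 9 of 15 of complex IV, as did all 11 assembly factors. The steepest were Cox5a (0.38 ± 0.04, adjusted p = 2.50e-13), Uqcrfs1 (0.37 ± 0.03) and Uqcrc1 (0.36 ± 0.02). The 8 that were not called were Atp5g1, Ndufa4l2 and, in complex IV, Cox4i2, Cox6a2, Cox6b2, Cox7a2l, Cox7b2 and Cox8c. On plate 2 alone 22 members rose (0.864% of all probe sets), and on plate 1 alone 80 (8.80%). Of the 82 members that rose with Ppargc1a, 80 also rose with this list, whose mean is itself correlated with Ppargc1a.

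**Figure D3:**
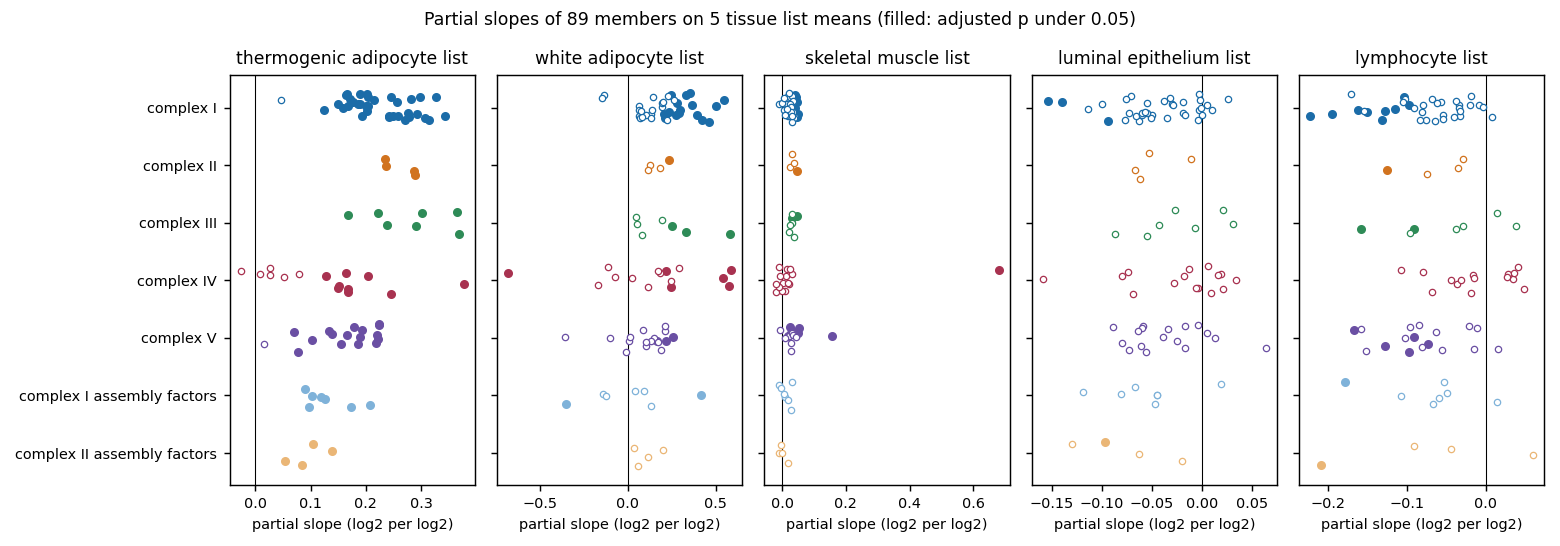
Partial slopes of the 89 members on the means of 5 marker lists fitted together over 115 mice, in log2 per log2 unit, by complex; filled points have an adjusted p under 0.05, and the horizontal scale differs between panels. In the thermogenic panel 81 points are filled and positive, and in the muscle panel Cox6a2 stands apart at 0.68.

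With the white adipocyte list, 29 members rose and 2 fell, against 14.4% and 11% of all probe sets, and the median was 0.17 against -0.03. In the simulated data a slope of 0.25 was recovered for 11% of changed probe sets with this list and 96% with the thermogenic list. The counts of calls with these lists therefore cannot be ranked as if the power were equal. The largest rises were Cox6a1 (0.59 ± 0.10, adjusted p = 4.29e-07), the common isoform of subunit 6a, Uqcr11 (0.58 ± 0.15) and Cox8a (0.58 ± 0.06). Cox4i2, which was not called with the thermogenic list, rose (0.54 ± 0.11). The 2 that fell were Cox6a2 (-0.68 ± 0.15, adjusted p = 2.64e-04) and Ndufaf5, an assembly factor of complex I (-0.35 ± 0.10). With this list limma called 0 members as rising on plate 2 alone (0.743% of all probe sets) and 34 on plate 1 alone (14.1%). The fits held 22 and 93 arrays, so these counts differ in power. With quantile normalization repeated 15 rose (12% of all probe sets), and with the list fitted alone 72 (20.6%).

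With the lymphocyte list 0 members rose and 19 fell, against 8.91% and 6.13% of all probe sets, and the median was -0.06 against -0.00457. Ndufb6, an accessory subunit of complex I, had the largest fall (-0.22 ± 0.05, adjusted p = 8.63e-04), and 9 of the 19 belong to complex I. With the luminal epithelium list 0 rose and 4 fell, against 7.58% and 5.05%, and the median was -0.04 against -0.02. This count of falls is near the share of all probe sets. The 4 were Ndufs1 (-0.15 ± 0.05), Ndufb6 (-0.14 ± 0.05), Sdhaf2 (-0.10 ± 0.03) and Ndufab1, the mitochondrial acyl carrier protein (-0.09 ± 0.03). On plate 2 alone limma called 0 members as falling with either list, where 0% of probe sets fell with the lymphocyte list and 0.00355% with the luminal list. With 22 arrays in that fit almost no probe set was called as falling, so these counts say little about the members. On plate 1 alone 15 and 4 members fell (5.46% and 4.16% of all probe sets). Without the 2 mice farthest from its median, 0 members fell with the luminal list in limma (3.35% of all probe sets fell). The members' median slope was -0.03 in that fit. Fitted alone, each of these lists had 62 falling members, where 15% of all probe sets fell with the luminal list and 16.1% with the lymphocyte list.

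Skeletal muscle set Cox6a2 apart from its partner Cox6a1. Cox6a2 replaces Cox6a1 in complex IV of heart and skeletal muscle. Its log2 value had lowest, median and highest of 6.76, 7.37 and 8.94 in cluster 3, of 6.48, 7.17 and 11.89 in cluster 2, and of 6.18, 6.80 and 10.89 in cluster 1. The median lay near the low end in each cluster, and the highest values were those of mice in clusters 2 and 1. It was the only member whose values, with cluster and plate removed, fell into 2 levels by an equal-variance mixture, with 94 mice at a mean of 7.06 and 21 at 9.82. The levels were 4.52 within-level SDs apart. Atp5g1 met the limits for BIC and separation (3.90 SDs, 107 mice at 9.63 and 8 at 10.84). It missed only the limit of 10% for the smaller share, with 7.07%. Cox6a2 lies on chromosome 7. Its partial slope on the muscle list was 0.68 ± 0.02 (limma adjusted p = 6.23e-58), and the 5 lists together accounted for 92.4% of its variance, against a median of 57.5% over the members. In the 2 mice with the highest muscle list means, of 12.37 and 11.54, Cox6a2 had values of 11.89 and 11.78. Cox6a1 had a slope of -0.02 ± 0.01 on the same list and was not called.

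Atp5g1 followed the muscle list as well, with a partial slope of 0.16 ± 0.02 (adjusted p = 3.23e-11), while Atp5g2 (0.02 ± 0.01) and Atp5g3 (0.03 ± 0.01), which encode the same mature c subunit, were not called. In all, 22 members rose and 0 fell with the muscle list, against 4.65% and 4.53% of all probe sets, and the median was 0.03 against -0.00752. The other 20 had slopes between 0.02 and 0.05. They included Atp5o (0.05 ± 0.01), the stalk subunit that sets oligomycin sensitivity, and 10 members of complex I. On plate 2 alone 4 members rose (1.50% of all probe sets), on plate 1 alone 6 (3.20%), and without the 2 mice farthest from the list's median 12 (3.66%). Cox6a2 and Atp5g1 were called in each of these 3 fits.

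**Figure D4:**
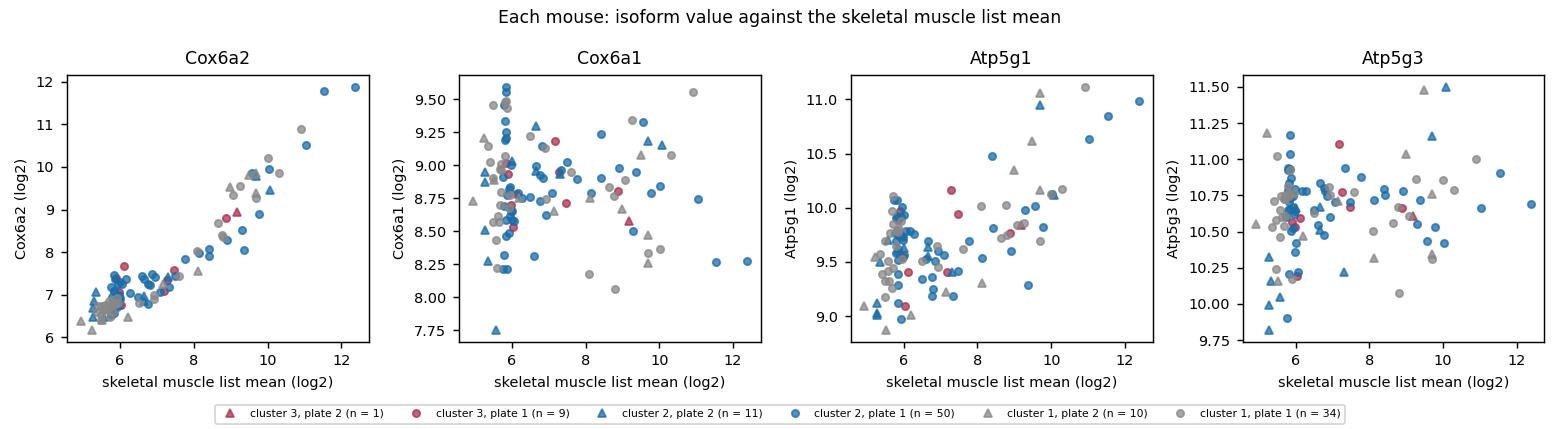
Log2 values of Cox6a2, Cox6a1, Atp5g1 and Atp5g3 in each of the 115 mice against the mean log2 value of the 20 skeletal muscle markers; colours mark the lymph cluster and shapes the array plate. Cox6a2 climbs with the list to 11.89 and Atp5g1 climbs among the mice with the most muscle transcripts, while Cox6a1 (slope -0.02) and Atp5g3 (0.03) were not called with the list.

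Hipk2, the gene in the title of the study, had log2 values from 9.83 to 11.49. With Hipk2, 44 members rose and 1 fell, where 18.5% of all probe sets rose and 17.2% fell, and the median slope was 0.20 against -0.01. Complex I held 23 of the 44 (of its 35 members), complex V 7 of 17, complex IV 6 of 15, complex III 3 of 7 and complex II 2 of 4. The largest rises were Uqcr11, a small subunit of complex III (0.56 ± 0.11, adjusted p = 6.30e-06), Ndufv3, an accessory subunit of complex I (0.54 ± 0.07, adjusted p = 5.68e-11), and Ndufb8 (0.51 ± 0.11). Among core subunits, Ndufv1 (0.39 ± 0.11), Sdhb (0.26 ± 0.10), Uqcrc1 (0.29 ± 0.12) and Atp5b (0.23 ± 0.04) rose. Ndufs1 (0.08 ± 0.12), Sdha (0.17 ± 0.08), Uqcrfs1 (0.16 ± 0.13), Cox4i1 (0.22 ± 0.10), Cox5a (0.34 ± 0.15) and Atp5a1 (0.14 ± 0.08) were not called. Among isoform pairs, Cox8a (0.46 ± 0.05), Cox6a1 (0.48 ± 0.08), Cox4i2 (0.37 ± 0.07) and Ndufa4l2 (0.23 ± 0.06) rose, and Cox6a2 (-0.67 ± 0.32) was not called. Ndufaf5 was the member that fell (-0.19 ± 0.07, adjusted p = 0.0179). On plate 2 alone 1 member rose, Cox8a (2.71% of all probe sets rose), and on plate 1 alone 46 rose and 2 fell (17.5% and 16.4%). With quantile normalization repeated 22 rose (16.7% of all probe sets).

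White adipocyte markers moved with Hipk2 too: 15 of 15 rose, with a median slope of 0.66. Of the thermogenic markers 3 of 8 rose and of the skeletal muscle markers 0 of 20 were called, while 13 of 14 luminal epithelium markers and 9 of 10 lymphocyte markers fell. With the 5 list means held, 5 members rose with Hipk2 and 22 fell, where 3.67% of all probe sets rose and 3.97% fell, and the members' median slope was -0.09. The 5 that rose were Atp5d, Ndufa12, Ndufs7, Ndufv3 and Uqcr11. The largest falls were Sdhaf4 (-0.93 ± 0.17, adjusted p = 7.27e-05), Ndufa1 (-0.89 ± 0.17) and Ndufb6 (-0.86 ± 0.13). The core subunits Ndufs1 (-0.52 ± 0.13), Uqcrfs1 (-0.54 ± 0.12), Atp5a1 (-0.44 ± 0.08) and Sdha (-0.29 ± 0.08) also fell. In all, 54 members had a positive slope on Hipk2 without the lists and a negative one with them. Only 3 members that rose without them fell with them. The share of all probe sets that changed sign is not given, so the 54 are not read as particular to the members. Hipk2 and the white adipocyte list mean had a Pearson correlation of 0.86 with cluster and plate removed, so this fit separates them poorly. How far fat content enters the slopes without the lists was not tested beyond this fit.

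**Figure D5:**
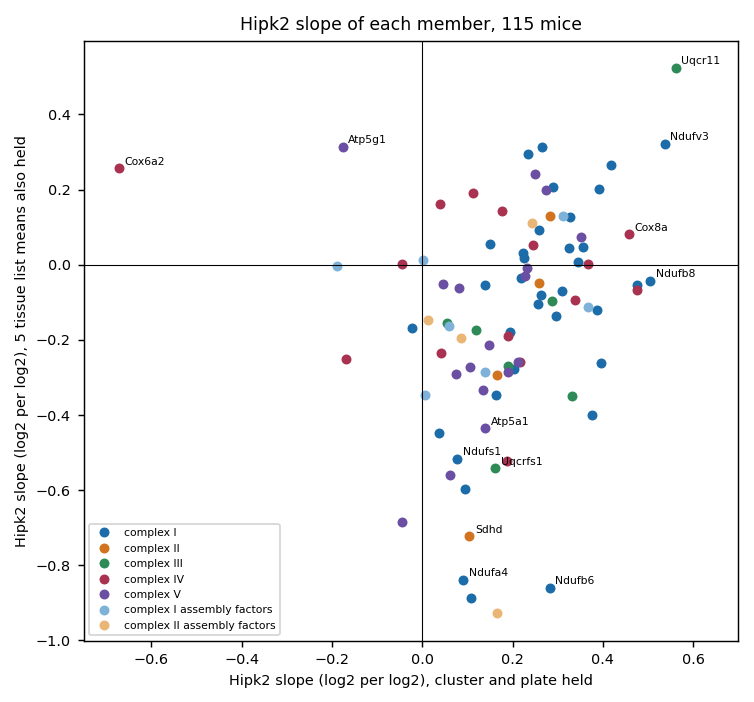
Slope of each of the 89 members on Hipk2 over 115 mice, in log2 per log2 unit, with cluster and plate held (horizontal) and with the 5 marker list means held as well (vertical); colours mark the complex. Of the members, 54 lie to the right of 0 and below it, and the share of all probe sets that do so is not given.

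The other genes of the pathway followed Hipk2 in part. Of 16 fatty acid oxidation genes 11 rose, with Hadh (0.51 ± 0.07, adjusted p = 1.06e-09) and Acads (0.71 ± 0.10) having the smallest p. Of 14 genes of pyruvate dehydrogenase and the citric acid cycle 8 rose, among them Mdh2 (0.36 ± 0.08) and citrate synthase, Cs (0.35 ± 0.07). Of 31 assembly factors outside the rule 16 rose, among them Atpaf2 (0.81 ± 0.09), which serves complex V, and Cox19 (0.69 ± 0.08), and 2 fell, Cox11 and Cox20. Of 7 genes for cytochrome c and carriers, Slc25a5 (0.31 ± 0.05) and Cycs (0.31 ± 0.07) rose. Of 13 regulators 0 rose and 4 fell, Pprc1 (-0.33 ± 0.05, adjusted p = 1.14e-07), Gabpb1 (-0.35 ± 0.06), Tfam (-0.36 ± 0.08) and Nrf1 (-0.15 ± 0.05). Cox7a1 and Cox8b were not called.

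The signed slope on Hipk2 was higher in lymph cluster 2 than in lymph cluster 1 for 6 members and lower for 0, where it was higher in cluster 2 for 0.450% of all probe sets and lower for 4.17%. The median difference of the slopes was 0.41 over the members and -0.02 over all probe sets. Ndufs7, an iron-sulfur subunit of complex I, had a slope of 0.45 ± 0.08 in cluster 2 and -0.05 ± 0.13 in cluster 1, and a difference of 0.50 ± 0.14 (limma interaction, adjusted p = 0.0236). The other 5 were Ndufb11 (0.49), Ndufv2 (0.49), Uqcrb (0.48), Atp5h (0.42) and Cox7b (0.42). In separate fits, 0 members were called in cluster 3 (median slope 0.27, 10 mice, 0% of all probe sets). With 10 mice and no probe set called, that fit says little about calls among the members. In cluster 2, 59 rose and 0 fell (median 0.34), where 4366 of 28203 probe sets rose and 4474 fell (31.3% called). In cluster 1, 4 rose and 2 fell (median -0.04), where 3372 probe sets rose and 1519 fell (17.3% called). The members' share of calls in cluster 1 was below that of all probe sets. The rises in cluster 1 were Cox4i2, Cox6a1, Cox8a and Ndufv3, and the falls Atp5g1 and Cox6a2. The difference did not hold within both plates. On plate 2 alone it was positive and called for 32 members (2.08% of all probe sets), with 11 mice in cluster 2 and 10 in cluster 1. On plate 1 alone it was called for 0, where 0% of all probe sets rose, with 0 members at an unadjusted p under 0.05 and a median difference of 0.09. With quantile normalization repeated, or with arrays weighted by quality, the 6 calls were lost.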

How the data were processed

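Per the submitters' processing notes, the authors used the oligo package and RMA, and they deposited log2 values. For tool versions and the array's build, the entry is: not given in the sources used here. Symbols were updated by gene identifier to the RefSeq table of GRCm38.p6, and a gene with several probe sets was represented by the one with the highest mean, which applied to 25 members. All 28204 probe sets were tested with limma 3.58.1 in R 4.3.3, adjusted over all of them by Benjamini-Hochberg, with a threshold of 0.05. Probe sets of a covariate gene, or of the 5 marker lists, were left out of the fits that used them. Correlations between arrays lay between 0.928 and 0.992, so no array was counted as a copy of another, and array medians between 6.16 and 6.45. For arrays, their number limits the precision. Each mouse is a separate sample. Levels were sought with mclust 6.1.1, which required a gain in BIC of 10, means 3 SDs apart and a smaller share of 10%. The statistics were tested on simulated data.

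The members and lists were chosen with earlier results of these data known. Named genes follow a rule: the 3 largest rises and falls among calls in each comparison, the most variable member of each complex, core subunits, isoform pairs, 2-level members and the 2 genes of each pathway list with the smallest p. Other genes, such as those called in only a few fits, were named after their values were seen. Alternatives removed the plate term, split the plates, dropped probe sets with a mean under 5, normalized again, subtracted array medians, weighted arrays, changed the moderation, averaged probe sets, or used ranks or the list means. Those on plate 2 alone, ranks of Hipk2 and Ppargc1a, the other Ppargc1a probe set, fits within a cluster and fits without 2 mice were chosen after seeing the data. Figures were drawn with matplotlib 3.10.9.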

Additional observations from a re-analysis of the deposited data

Results flagged for a closer look

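In lymph cluster 3, the group of 10 mice, 6 of 89 members had 1 mouse far from the other 9, measured as the gap to the nearest mouse divided by the range of the group, above Dixon's critical value at 95%. Chance flags about 1 in 20 such groups. Atp5o, a stalk subunit of complex V, was low in 1 mouse (8.94, against 9.54 in the next mouse, ratio 0.596). Atp5j, also of complex V, was low in 1 mouse (10.89 against 11.17, ratio 0.510), and so was Ndufb8 of complex I (9.10 against 9.60, ratio 0.487). A high value stood apart for Cox7a2 of complex IV (10.93 against 10.30, ratio 0.625), Ndufv2 (11.21 against 10.91, ratio 0.541) and Ndufa5 (8.64 against 8.20, ratio 0.536), both of complex I.

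The slope on Hipk2 differed between lymph clusters 2 and 1, by the interaction term in limma, for 6 members. The difference was 0.503 for Ndufs7, 0.491 for Ndufb11, 0.487 for Ndufv2, 0.479 for Uqcrb, 0.424 for Atp5h and 0.418 for Cox7b, all in log2 per log2 unit. In lymph cluster 2 their slopes lay between 0.28 (Atp5h) and 0.45 (Ndufs7), and in lymph cluster 1 between -0.18 (Uqcrb) and -0.05 (Ndufs7). None of the 6 was called on plate 1 alone, where 0 members had an unadjusted p under 0.05.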

How the results depend on the processing

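Of the recomputed counts and summaries, 218 stayed within 1.5 times the reported value (correlations within 0.05) and 39 did not. Of the recomputed values of named genes, 1189 kept direction and side of the threshold, 120 lost the call, 19 gained it and 14 changed sign. The cause of these changes was not tested. Members rising with Hipk2 went to 22 with repeated quantile normalization (16.7% of all probe sets). They went to 5 with the list means (3.67%) and 1 on plate 2 alone (2.71%). Members falling with Hipk2 numbered 2 on plate 1 alone (16.4% of all probe sets) and 22 with the list means (3.97%). The number was 0 on plate 2 alone (0.557%), after subtracting array medians or with array weights. The higher slope in cluster 2 was called for 32 members on plate 2 alone (2.08% of all probe sets). It was called for 0 on plate 1 alone (0%) or with quantile normalization (0.184%). Without dim probe sets it was called for 11, after subtracting array medians or with ranks for 2, and with array weights for 0. With Ppargc1a, 33 members rose beside the list means, and 1 fell, Cox7b2, with quantile normalization. With the white adipocyte list 72 rose and 1 fell when it was fitted alone (20.6% and 20.4% of all probe sets). There were 15 rises with quantile normalization (12%) and 18 with ranks. Plate 2 alone had 0 rises and 0 falls (0.743% and 0.0924%). With the thermogenic list 22 rose on plate 2 alone (0.864% of all probe sets). With the muscle list 37 rose with quantile normalization (5.31% of all probe sets), 14 with array weights and 12 without 2 mice (3.66%). On plate 1 alone 6 rose (3.20%) and on plate 2 alone 4 (1.50%). With the luminal list 62 fell when it was fitted alone (15% of all probe sets) and 10 with quantile normalization (5.47%). With that list 1 fell after subtracting array medians, and 0 on plate 2 alone (0.00355%) or without 2 mice (3.35%). With the lymphocyte list 62 fell when it was fitted alone (16.1% of all probe sets) and 0 on plate 2 alone (0%). After subtracting array medians 7 fell, and with array weights 1 rose. The share of all probe sets called moved between these fits as well. For ranks, array weights, subtracted array medians and dropped dim probe sets that share is not given. Counts from those fits are therefore not read as changes in the members. The median pair correlation went to 0.26 with the list means removed.

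Among the genes that the rule named for the slope on Hipk2, some turned negative with the list means held. These were Ndufa4 (-0.84), Uqcrfs1 (-0.54), Cox7a2 (-0.52), Ndufs1 (-0.52), Atp5a1 (-0.44), Sdha (-0.29), Atp5g3 (-0.29), Ndufv1 (-0.12), Uqcrc1 (-0.10), Cox6a1 (-0.067), Sdhb (-0.0498), Ndufb8 (-0.0423) and Atp5b (-0.00812). Other members turned too, among them Sdhaf4, Ndufa1 and Ndufb6. A change of sign is not a call, and the last of the values listed lie near 0. The luminal slope of Ndufb6 turned to 0.018 on plate 2 alone. No paired analysis was possible because the replicate numbers only follow the order of the samples. Plate 2 held 22 arrays and lymph cluster 3 held 10, which limits what the fits within them can call.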
